A study of Saccharomyces cerevisiae with 12 samples.

Results

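The regions described here are the 5 kb on either side of the 16 centromeres of Saccharomyces cerevisiae, as seen by a tiling microarray. A probe was taken when it was not a control spot and its centre lay within 5 kb of the centromere point of its chromosome. The points were given to 0.1 kb. The rule uses positions only, though the regions were chosen with earlier results of these data known. This gave 603 of 41480 nuclear probes (1.45%), with 309 probes to the left and 294 to the right of the points and 34 to 42 probes at each centromere. The probes had a median length of 60 bases and followed each other every 246 bp in the median, with a largest gap of 570 bp. The 30 probes within 0.25 kb of a point, 1 or 2 for each centromere, are called the nearest probes below. Positions refer to the sacCer1 build.

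Acetylated histone H4 (AcH4) was measured by chromatin immunoprecipitation followed by hybridization to the array (ChIP-chip). The immunoprecipitated DNA (IP) and the input DNA were copied into RNA by linear amplification, and the RNA of the IP, labelled with Cy5, was hybridized together with that of the input, labelled with Cy3. There were 3 arrays of each of 4 strains. The rco1Δ strain carried rco1Δ::KANMX6 in the BY4741 background. The rsc1Δ and rsc2Δ arrays are labelled only by their deletion. The wild type was BY4741 (MATa his3Δ1 leu2Δ0 met15Δ0 ura3Δ0), whose auxotrophic alleles rco1Δ also carried. All cultures grew in rich medium (YPD), the antibody was raised against hyperacetylated H4, and each array held 1 ChIP sample and its input. Each mutant is a single deletion strain, and the values are averages over all cells of a culture. The comparison asks how loss of a deacetylase subunit, or of either of a pair of remodeler subunits, was accompanied by changes in AcH4.

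A budding yeast centromere is a point centromere, a short DNA element that holds a single nucleosome containing the histone H3 variant Cse4, on which the kinetochore is built. Cohesin is enriched in the surrounding pericentromeric chromatin, and genes lie close to the element on both arms. Rco1 is a subunit of Rpd3S, a histone deacetylase complex that is directed to transcribed coding regions by Set2 methylation of histone H3 and removes acetyl groups there. Rsc1 and Rsc2 are bromodomain proteins that define alternative forms of RSC, an essential ATP-dependent chromatin remodeler with known roles at promoters and in chromosome segregation. The first genes on each arm, named here only from the systematic numbering that counts away from the centromere, include MET14 and VPS1 on chromosome 11, PRE3 and AVT1 on chromosome 10, TFC3 and NUP60 on chromosome 1 and YPT7 and CDC5 on chromosome 13. No probe was assigned to a gene.

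The deleted genes gave a check of the labels. A run of 4 or 5 neighbouring probes on the chromosome of the deleted gene had lost its input signal in each mutant, by 4.87 on the log2 scale in rco1Δ (RCO1, chromosome 13), by 5.09 in rsc1Δ (RSC1, chromosome 7) and by 4.57 in rsc2Δ (RSC2, chromosome 12). The run held 4 probes in rco1Δ, 4 in rsc1Δ and 5 in rsc2Δ. The next longest run held 1 probe in rco1Δ, 3 in rsc1Δ and 3 in rsc2Δ, so the margin was narrow in rsc1Δ. Input was well above background at 79.0% to 99.8% of nuclear probes of an array and IP at 82.3% to 98.9%. The rco1Δ arrays stood apart from the others over the whole genome. Their log2 ratios had a median absolute deviation of 0.53 to 0.69, against 1.08 to 1.29 on the other arrays. They correlated with the wild-type mean ratio at r = 0.49 to 0.65 across nuclear probes. These ratios come from the processed intensities, and that choice mattered most for 2 rco1Δ arrays. The authors' deposited normalized ratios correlated with them at r = 0.73, 0.95 and 0.79 on the rco1Δ arrays, against 0.91 to 0.99 on the others. The arrays came from 3 slides and 7 scans, and no rco1Δ array was scanned together with a wild-type array, so scan and strain cannot be told apart for this mutant. Of the slides, 2 held arrays of all 4 strains, and values within these are given beside the results. Slides are as the file headers name them, and 4 array places, which include those of all 3 rco1Δ arrays, were recorded for 2 samples scanned on different days, so the slide of an array is not certain. The 3 mutants were all compared with the same 3 wild-type arrays.

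AcH4 was higher around the centromeres than over the rest of the genome in every strain. Values are log2 of IP over input, with 0 at the median probe of each array. The 603 probes averaged 0.15 ± 0.12 in rco1Δ, 0.40 ± 0.05 in rsc1Δ, 0.25 ± 0.09 in rsc2Δ and 0.30 ± 0.04 in wild type (SD, n = 3 each). The other nuclear probes averaged -0.12 in rco1Δ, -0.12 in rsc1Δ, -0.15 in rsc2Δ and -0.16 in wild type. The excess of the centromere-flanking probes over the others was 0.157, 0.320 and 0.322 on the rco1Δ arrays, 0.50, 0.51 and 0.55 on the rsc1Δ arrays, 0.403, 0.365 and 0.422 on the rsc2Δ arrays and 0.462, 0.464 and 0.443 on the wild-type arrays. This excess was not scaled to the spread of each array, and the strains differed in that spread. The median absolute deviation was 0.53 to 0.69 in rco1Δ, 1.24 to 1.29 in rsc1Δ, 1.23 to 1.29 in rsc2Δ and 1.08 to 1.14 in wild type. None of the mutants overlapped wild type in the unscaled excess. It differed from wild type by -0.19 in rco1Δ, 0.06 in rsc1Δ and -0.06 in rsc2Δ. Each of these differences had p = 0.1 by an exact permutation test over arrays (two-sided), the smallest value that 3 arrays against 3 can give, so no comparison of this kind can pass 0.05.

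The signal was not the same on the 2 sides. The left side averaged 0.26 in rco1Δ, 0.56 in rsc1Δ, 0.44 in rsc2Δ and 0.45 in wild type, and the right side 0.04 in rco1Δ, 0.22 in rsc1Δ, 0.04 in rsc2Δ and 0.14 in wild type. On every array the left side was higher in this average, which rested on the same probes each time. The order did not hold at every centromere. At centromere 1 wild type averaged -0.89 on the left and 0.31 on the right. In wild type the highest mean of a 1 kb bin lay 1 to 2 kb to the left of the points, at 0.88, where rco1Δ had 0.36, rsc1Δ 1.09 and rsc2Δ 0.85. The lowest lay 1 to 2 kb to the right, at -0.22, where rco1Δ had 0.09, rsc1Δ -0.20 and rsc2Δ -0.58. At the edge of the window, the probes 4 to 5 kb away averaged 0.19 in rco1Δ, 0.26 in rsc1Δ, 0.27 in rsc2Δ and 0.27 in wild type, and those 5 to 10 kb away, just outside it, 0.03 in rco1Δ, 0.11 in rsc1Δ, -0.02 in rsc2Δ and 0.04 in wild type.

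**Figure D1:**
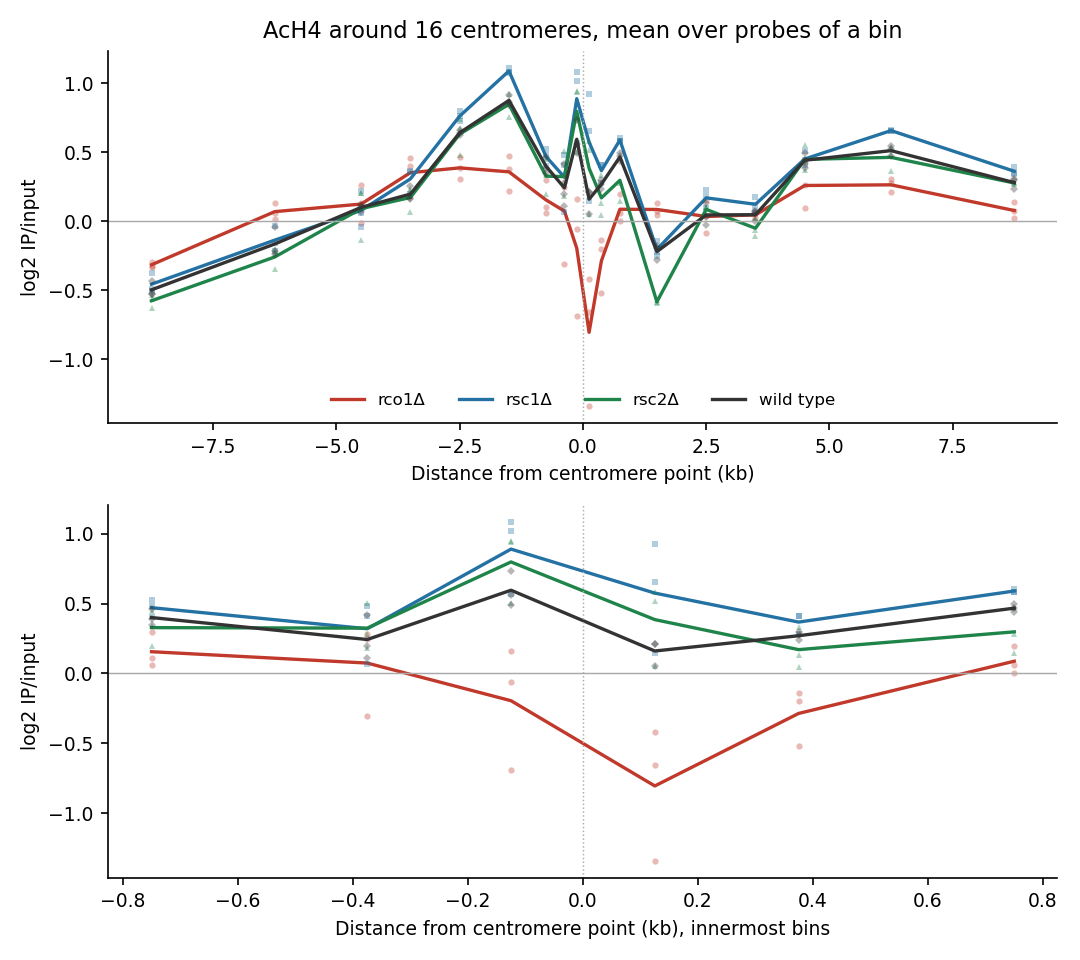
Mean log2 IP/input (vertical axis) by signed distance from the centromere point in kb (horizontal axis), over 10 kb each side above and the innermost bins below. Points are arrays and lines are the means of 3 arrays for rco1Δ, rsc1Δ, rsc2Δ and wild type. In the bin just right of the points the rco1Δ mean is -0.80, against 0.16 in wild type, and beyond 5 kb the strains lie closer together than there.

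Among the distance bins and mutants, the largest departure from wild type was in rco1Δ at the centromere itself. The 30 nearest probes averaged -0.99, -0.35 and -0.10 on the rco1Δ arrays, against 0.49, 0.40 and 0.29 on the wild-type arrays. All rco1Δ arrays were below 0 and all wild-type arrays above it. The means were -0.48 ± 0.46 in rco1Δ and 0.39 ± 0.10 in wild type (SD, n = 3 each), a difference of -0.87 with p = 0.1 by the exact permutation test and an adjusted p of 0.233 over the 21 comparisons of 7 distance bins and 3 mutants. The difference was smaller in the bins farther out. At 0.25 to 0.5 kb it was -0.37 (-0.12 in rco1Δ, 0.26 in wild type), at 0.5 to 1 kb it was -0.31 (0.12 in rco1Δ, 0.43 in wild type) and at 1 to 2 kb it was -0.13 (0.23 in rco1Δ, 0.36 in wild type), where the arrays overlapped. They also overlapped at 2 to 3 kb (difference -0.14), at 3 to 4 kb, where rco1Δ was the higher (0.21 in rco1Δ, 0.13 in wild type), and at 4 to 5 kb (difference -0.08). At 5 to 10 kb the means were 0.03 in rco1Δ and 0.04 in wild type. The level of the nearest probes above the probes 5 to 20 kb away on the same array was -0.797, -0.178 and -0.008 in rco1Δ, against 0.529, 0.504 and 0.410 in wild type. No rco1Δ array had a higher ratio at the centromere than in its own flanks, while every wild-type array did (difference -0.81, exact permutation test p = 0.1). The same contrast of log2 IP alone was above 0 on every array, at 0.33, 0.08 and 0.51 in rco1Δ, against 0.69, 0.61 and 0.49 in wild type, which overlapped. Within the slides that held both strains, the nearest probes differed by -0.79 and -1.28.

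Of the 30 nearest probes, 27 had a lower mean in rco1Δ than in wild type. In limma's moderated test, fitted on all nuclear probes with Benjamini-Hochberg adjustment, 15 of the 30 (50%) fell in rco1Δ and 0 rose at an adjusted p under 0.05 (17 at an unadjusted p under 0.05). Over all nuclear probes 28.1% fell and 26.0% rose in this comparison. The arrays did not overlap, with rco1Δ lower, at 17 of the 30 (56.7%), against 34.9% of nuclear probes. Neighbouring probes are not independent, since copies of the same DNA fragments can hybridize to both. The 15 probes that fell lay at 11 centromeres, and 13 of them were clear of background in IP and input alike on all 12 arrays, as were 23 of the 30. Among nuclear probes that bright, 37.0% fell, beside 13 of the 23 bright nearest probes. Of the bright nuclear probes 44.9% were lower without overlap. Falls also went with a high wild-type level: 10309 of the 11666 nuclear probes that fell were above 0 in wild type. Of the 30 nearest probes 19 were above 0 in wild type, beside 50.5% of nuclear probes. At all 15, which were chosen for a lower ratio, the input was higher and the IP lower in rco1Δ than in wild type. Higher input was not particular to these probes. Of the 11666 nuclear probes that fell, 8832 had a higher input in rco1Δ, with a median input difference of 0.61 over the 11666. Of the 174 that fell within 5 kb of the points, 145 did (median input difference 0.86). Over all 30 the IP was lower at 22 and higher at 8, and in the test of the IP alone 1 probe fell and 2 rose. The share that fell was smaller farther out, with 10 of 32 at 0.25 to 0.5 kb, 21 of 62 at 0.5 to 1 kb and 35 of 119 at 1 to 2 kb. The fall at the nearest probes kept its direction under every processing alternative, from -1.29 to -0.41, but with loess normalization only 3 of the 30 passed the test.

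**Figure D2:**
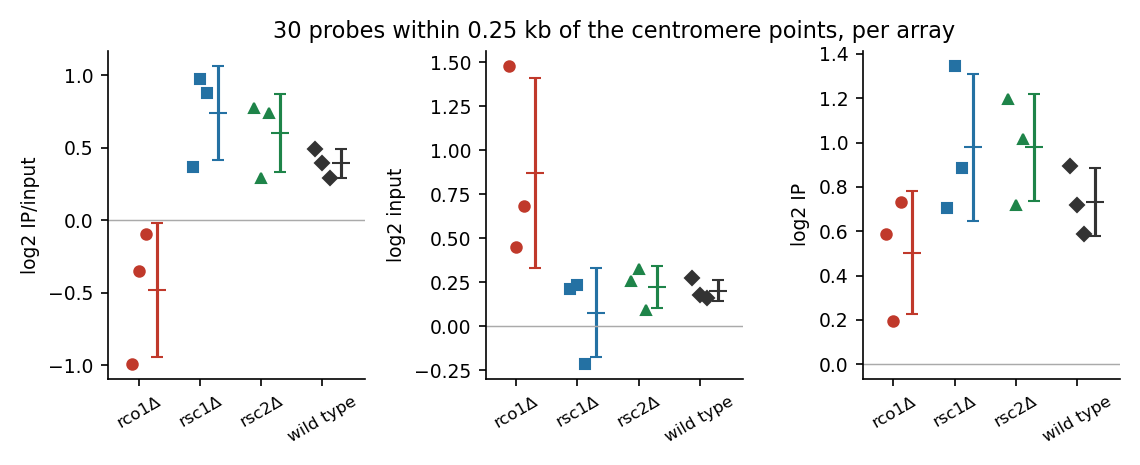
Mean over the 30 nearest probes of log2 IP/input (left), log2 input (middle) and log2 IP (right) on each array, for rco1Δ, rsc1Δ, rsc2Δ and wild type from left to right. Symbols are arrays, and the bars to their right show the mean ± SD of 3 arrays. The rco1Δ arrays lie below all others in the ratio and above all others in the input, and overlap wild type in the IP.

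The difference was present at most centromeres. The nearest probes had a lower mean in rco1Δ at 15 of 16 centromeres, and at 7 of these the arrays did not overlap. Over the genome 23846 of 41480 nuclear probes were lower in rco1Δ. Without overlap of the arrays 34.9% of nuclear probes and 38.8% of 10 kb windows were lower, so the 7 of 16 is not far from these shares. At centromere 2 the nearest probes gave -0.52, -0.03 and 0.21 on the rco1Δ arrays, against 1.86, 1.503 and 1.38 on the wild-type arrays. At centromere 1 they gave -0.68, -0.22 and 0.32 in rco1Δ, against 1.43, 1.72 and 1.26 in wild type. Centromere 16 started below 0 and was still lower in the mutant, with -1.81, -1.57 and -1.24 in rco1Δ, against -0.49, -0.85 and -0.81 in wild type. Centromere 11, which had a single nearest probe, went the other way, with -0.77, -0.65 and -1.19 in rco1Δ, against -1.66, -1.47 and -1.59 in wild type. Wild-type levels at the nearest probes spanned -1.57 at centromere 11 to 1.90 at centromere 10, and rco1Δ levels -1.64 at centromere 13 to 0.52 at centromere 10. A nearest probe of centromere 13 was clear of background in IP and input alike on only 6 arrays.

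The input channel also differed at these probes. For the nearest probes, log2 input relative to the array median was 1.48, 0.45 and 0.68 on the rco1Δ arrays, against 0.27, 0.18 and 0.16 on the wild-type arrays. The rco1Δ arrays were all higher, with array 1 well above the other two, and the difference was 0.67 (exact permutation test p = 0.1, adjusted p = 0.3). Without rco1Δ array 1 it was 0.36. Within slides it was 0.23 and 1.32. Log2 IP was 0.59, 0.19 and 0.73 in rco1Δ, against 0.89, 0.72 and 0.59 in wild type, which overlapped (difference -0.23, exact permutation test p = 0.5). The lower ratio of the nearest probes was accompanied by a higher input, and the IP was not separated from wild type. Log2 input over all 603 probes was 0.58, 0.26 and 0.29 in rco1Δ, against 0.13, 0.09 and 0.12 in wild type, a difference of 0.26 (0.16 without rco1Δ array 1). The nuclear probes outside the window differed by 0.13, also with rco1Δ higher. Across nuclear probes, log2 input correlated with the wild-type mean ratio at r = 0.39, 0.31 and 0.29 on the rco1Δ arrays. The wild-type arrays gave 0.26, 0.19 and 0.15, and the rsc1Δ and rsc2Δ arrays 0.15 to 0.20. In the probe-wise test input rose in rco1Δ at 48 of the 603 probes (7.96%, beside 5.2% of nuclear probes) and fell at 0 (beside 0.451% of nuclear probes), with 181 at an unadjusted p under 0.05. The arrays did not overlap, with rco1Δ higher, at 146 of the 603, against 21.1% of nuclear probes. With slide as a block, scan as a random block or normexp background correction 0 input calls were left. There were 117 without rco1Δ array 2, 4 without rco1Δ array 1, and 0 without rco1Δ array 3 or without any of the wild-type arrays. The ratio is to input DNA and not to total H4. Less acetylation of each nucleosome, fewer nucleosomes and a changed input signal therefore cannot be told apart in the lower ratio. Why the input was higher was not tested.

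**Figure D3:**
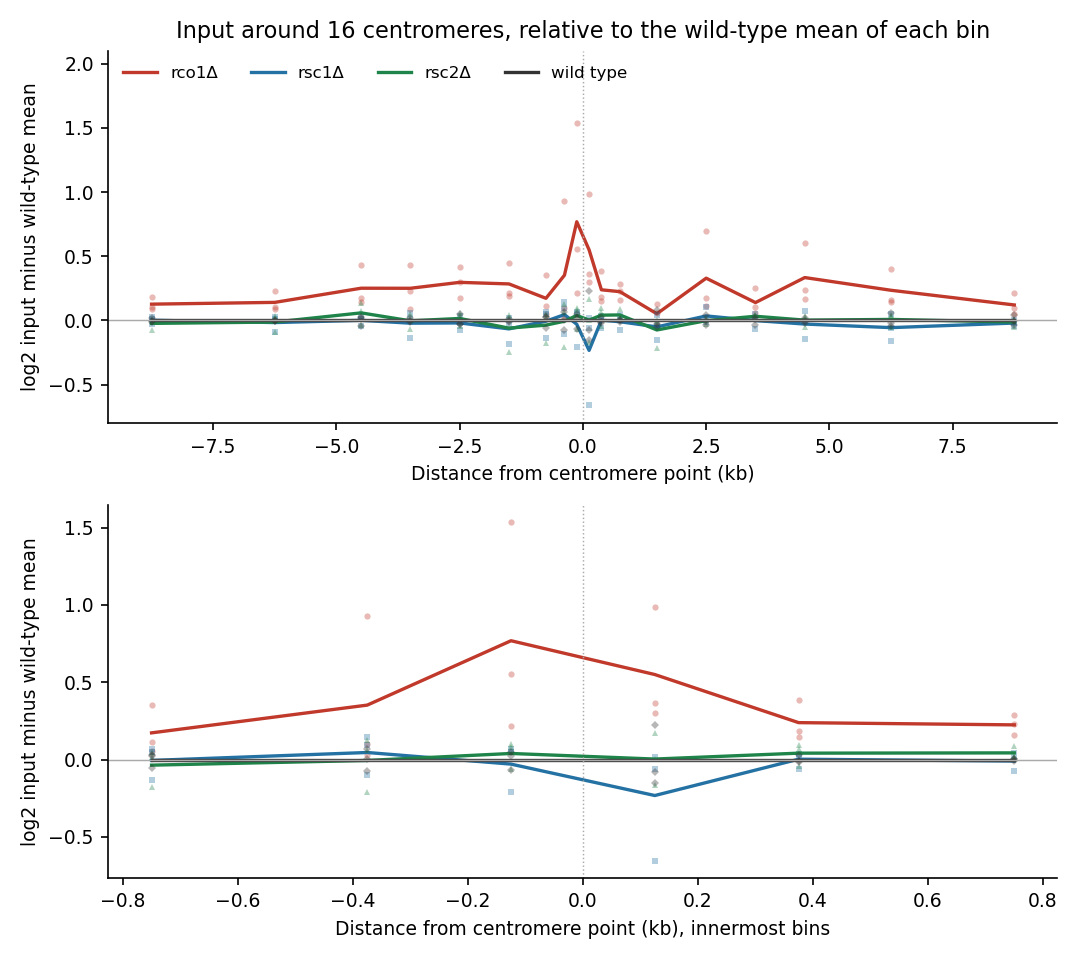
Log2 input minus the wild-type mean of the same bin (vertical axis) by signed distance from the centromere point in kb (horizontal axis), over 10 kb each side above and the innermost bins below. Points are arrays and lines the means of 3 arrays for rco1Δ, rsc1Δ, rsc2Δ and wild type, the last at 0 by construction. Over the 30 nearest probes the difference from wild type is 0.67 in rco1Δ, -0.12 in rsc1Δ and 0.02 in rsc2Δ, and the rsc1Δ and rsc2Δ arrays overlap wild type.

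Over the whole window, probes moved both ways in rco1Δ. Of the 603 probes 136 rose (22.6%) and 174 fell (28.9%), shares close to the 26.0% and 28.1% of all nuclear probes. The median difference was -0.32, beside -0.24 over all nuclear probes. The probes that rose were low in wild type and those that fell were high in it. The 136 had a median of -0.07 in rco1Δ and -1.42 in wild type, where 133 of them were below 0. The 174 had a median of 0.46 in rco1Δ and 1.63 in wild type, where 169 were above 0. Over all nuclear probes the medians showed the same order, -0.10 in rco1Δ and -1.92 in wild type for probes that rose, and 0.19 in rco1Δ and 1.35 in wild type for those that fell. The members' mean differed by -0.15 (exact permutation test p = 0.1), and by -0.14 and -0.24 within slides. Without rco1Δ array 1 it was -0.08. When all arrays were scaled to a common spread the difference was -0.02. The mean of the window above its 5 to 20 kb flanks, 0.30 ± 0.08 in rco1Δ and 0.39 ± 0.01 in wild type (SD, n = 3 each), differed by -0.08, but by 0.18 under that scaling and by 0.06 with the deposited normalized values, which is the opposite direction, and by -0.04 without rco1Δ array 1.

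The single probes described next were chosen for the size of their change. The largest rise was on chromosome 2 at 233621 to 233680, 4.65 kb left of the point, with -1.31, -0.81 and -1.57 in rco1Δ, against -3.58, -3.43 and -3.91 in wild type. It rose by 2.41 (SE 0.29, limma adjusted p = 7.38e-06), but its difference was -0.03 in the deposited normalized values. On chromosome 1 at 148227 to 148286 (3.24 kb left) the values were -0.16, 0.22 and 1.12 in rco1Δ, against -1.497, -2.04 and -1.93 in wild type (limma adjusted p = 4.77e-05). On chromosome 11 at 440855 to 440914, 0.88 kb to the right, they were 0.35, -0.49 and -0.47 in rco1Δ, against -2.43, -2.45 and -2.22 in wild type (limma adjusted p = 9.3e-05).

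The largest fall was on chromosome 4 at 452374 to 452431 (2.60 kb right), with -0.39, 0.43 and 0.74 in rco1Δ, against 3.27, 2.76 and 2.67 in wild type, a difference of -2.64 (SE 0.32, limma adjusted p = 8.17e-06). Its log2 input was 6.96, 3.45 and 3.91 in rco1Δ, against 1.88, 2.35 and 2.48 in wild type, the largest called input rise of the window. The next fall was on chromosome 1 at 154679 to 154738 (3.21 kb right), with 0.90, 0.59 and 1.78 in rco1Δ, against 3.30, 3.73 and 3.49 in wild type (limma adjusted p = 0.000135). The third was close to a centromere, on chromosome 6 at 148840 to 148899 and 0.27 kb from the point, with -0.41, 0.18 and 1.26 in rco1Δ, against 2.40, 3.04 and 2.58 in wild type (limma adjusted p = 0.000416). Chromosome 1 thus held 1 of the largest rises and 1 of the largest falls, on opposite sides of its centromere. Other large input rises were on chromosome 14 at 631599 to 631658 (3.45, 1.88 and 2.33 in rco1Δ, against 0.75, 0.16 and 0.05 in wild type) and on chromosome 9 at 356184 to 356243 (4.50, 2.52 and 3.01 in rco1Δ, against 1.85, 1.14 and 1.13 in wild type).

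Levels varied widely among the 16 centromeres. Means over the 5 kb flanks spanned -0.33 at centromere 13 to 0.45 at centromere 7 in rco1Δ, -0.21 at centromere 1 to 0.92 at centromere 10 in rsc1Δ, -0.46 at centromere 1 to 0.89 at centromere 3 in rsc2Δ and -0.37 at centromere 12 to 0.79 at centromere 10 in wild type. The SD over the 16 was 0.21 in rco1Δ, 0.38 in rsc1Δ, 0.46 in rsc2Δ and 0.39 in wild type. In wild type 13 of the 16 lay above 0, and centromeres 1, 12 and 13 lay below it. Single sides differed strongly. The left side of centromere 11, the MET14 arm, averaged 0.47 in rco1Δ and 1.17 in wild type, and its right side, the VPS1 arm, 0.07 in rco1Δ and -0.40 in wild type. At centromere 1 the left side (the TFC3 arm) averaged -0.02 in rco1Δ and -0.89 in wild type, and the right side 0.15 in rco1Δ and 0.31 in wild type. Among 1177 windows of 10 kb laid outward from the points, between 40 (centromere 10) and 825 (centromere 12) had a higher wild-type level than the centromere window of that chromosome.

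**Figure D4:**
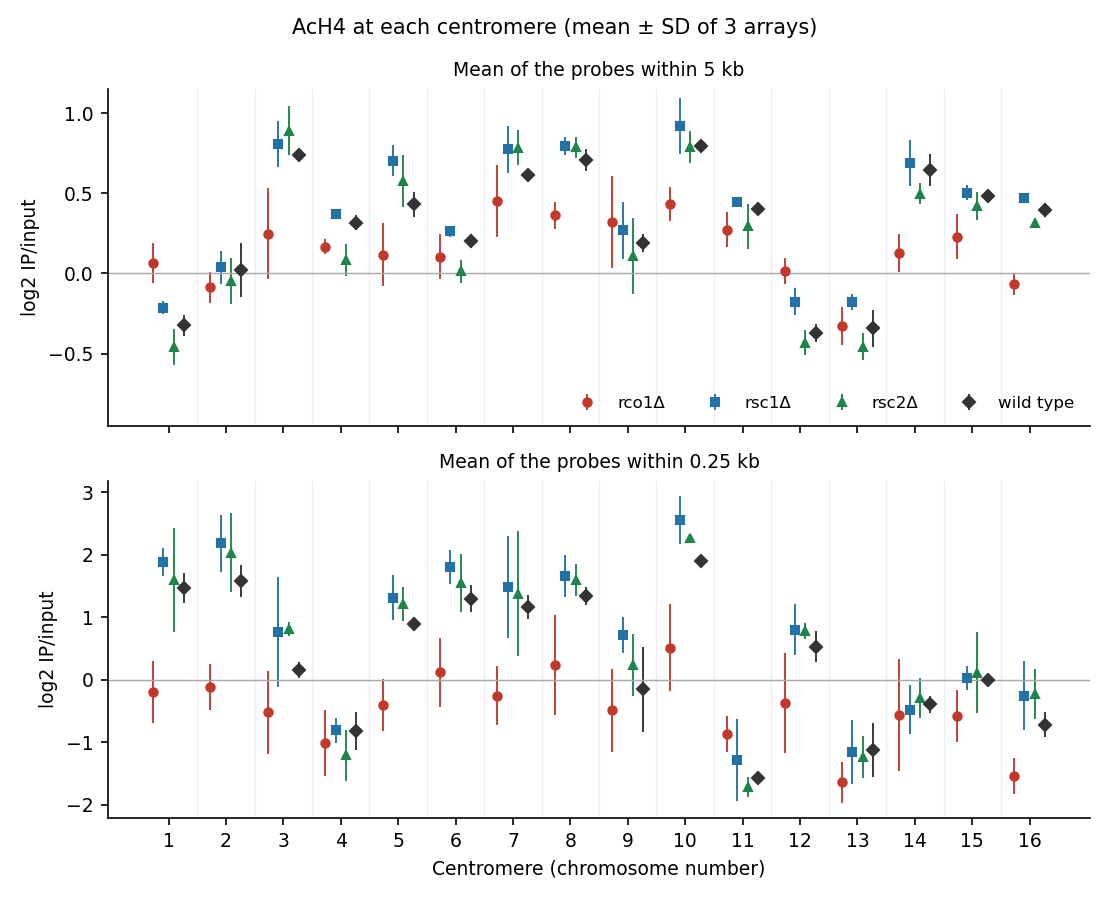
Mean log2 IP/input (vertical axis) at each of the 16 centromeres (horizontal axis, chromosome number) over the probes within 5 kb (top) and within 0.25 kb (bottom). Symbols and bars are the mean ± SD of 3 arrays for rco1Δ, rsc1Δ, rsc2Δ and wild type from left to right. The rco1Δ symbols of the bottom panel lie below wild type at 15 of 16 centromeres.

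Window means were tested with limma over all 1177 windows. In rco1Δ the centromere window rose on 2 chromosomes, 1 and 12 (by 0.39 at each, limma adjusted p = 0.0003 and 0.0001), and 32.0% of all windows rose. It fell on 7, namely 3, 5, 8, 10, 14, 15 and 16, and 36.8% of all windows fell. The largest falls were at centromere 14 (-0.52, with 0.13 ± 0.12 in rco1Δ and 0.65 ± 0.10 in wild type, SD, n = 3 each) and centromere 3 (-0.49, with 0.25 ± 0.28 in rco1Δ and 0.74 ± 0.03 in wild type). Both windows that rose were below 0 in wild type, and all 7 that fell were above it. Neither rise was called with normexp correction, plain background subtraction, the deposited normalized values or bright probes only. Window input rose in rco1Δ on 5 chromosomes (1, 5, 8, 9 and 10), beside 14.4% of all windows, and did not overlap wild type at 10, beside 39.2% of all windows.

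In rsc1Δ the differences from wild type were small and mostly of one sign. The members' mean was 0.334, 0.436 and 0.419 on the rsc1Δ arrays, against 0.345, 0.294 and 0.256 on the wild-type arrays, which overlapped (difference 0.10, exact permutation test p = 0.2). At 0.5 to 1 kb the arrays did not overlap, with 0.50, 0.55 and 0.53 in rsc1Δ, against 0.48, 0.41 and 0.41 in wild type. The same held at 1 to 2 kb, with 0.50, 0.47 and 0.47 in rsc1Δ, against 0.41, 0.37 and 0.31 in wild type (exact permutation test p = 0.1 for both bins). The nearest probes gave 0.37, 0.97 and 0.88 in rsc1Δ, against 0.49, 0.40 and 0.29 in wild type, which overlapped (difference 0.35, exact permutation test p = 0.3), and within slides they differed by -0.07 and 0.69. All 16 centromere windows had a higher mean in rsc1Δ, by 0.02 to 0.27, with a median of 0.08. Of all 1177 windows 752 were also higher in rsc1Δ, with a median difference of 0.03. At 4 of the 16 (1, 5, 12 and 16) the arrays did not overlap, beside 17.2% of all windows. None of the 16 passed limma's test with adjustment, with 2 at an unadjusted p under 0.05.

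Among single probes 1 of the 603 rose and 0 fell in rsc1Δ, where 0.0482% and 0.0603% of nuclear probes did, and 37 had an unadjusted p under 0.05. The probe was on chromosome 13 at 265087 to 265144, 2.98 kb left of the point, with -0.22, -0.70 and -0.28 in rsc1Δ, against -1.68, -1.95 and -2.21 in wild type (difference 1.55, SE 0.27, limma adjusted p = 0.0326). It failed the test when any of the 6 arrays compared was left out, with a slide block and under each other background correction and normalization. The fall with the lowest adjusted p, on chromosome 14 at 624008 to 624067, was not called (-0.97, limma adjusted p = 0.255). Log2 input of the 603 probes differed by -0.02 (exact permutation test p = 0.8).

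In rsc2Δ the probes 0.5 to 2 kb from the points averaged below wild type, mostly on the right side. The members' mean was 0.302, 0.149 and 0.296 in rsc2Δ, against 0.345, 0.294 and 0.256 in wild type, which overlapped (difference -0.05, exact permutation test p = 0.6). At 1 to 2 kb the values were 0.19, 0.12 and 0.21 in rsc2Δ, against 0.41, 0.37 and 0.31 in wild type, with no overlap (difference -0.19, exact permutation test p = 0.1). By side, the right averaged -0.58 in rsc2Δ and -0.22 in wild type without overlap. The left averaged 0.85 in rsc2Δ and 0.88 in wild type, and there the arrays overlapped. At 0.5 to 1 kb the values of both sides together were 0.40, 0.17 and 0.36 in rsc2Δ, against 0.48, 0.41 and 0.41 in wild type, again with every rsc2Δ array lower. Either side alone overlapped wild type at this distance. At the nearest probes the order was the other way, with 0.78, 0.29 and 0.74 in rsc2Δ, against 0.49, 0.40 and 0.29 in wild type, which overlapped (difference 0.21, exact permutation test p = 0.3). None of the 603 probes rose or fell in limma's test (75 at an unadjusted p under 0.05), where 0.154% of nuclear probes rose and 0.374% fell. The probes with the lowest adjusted p were on chromosome 14 at 631599 to 631658 (1.11, limma adjusted p = 0.101) and on chromosome 10 at 437768 to 437827 (-1.06, limma adjusted p = 0.0752). Of the centromere windows, that of chromosome 4 fell (0.09 ± 0.10 in rsc2Δ and 0.32 ± 0.05 in wild type, SD, n = 3 each, limma adjusted p = 0.0443), beside 3.99% of all windows. This call was lost, leaving 0, when any of the 6 arrays compared was left out and under 10 other settings.

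The means of rsc1Δ and rsc2Δ lay on opposite sides of wild type over the members and from 0.5 to 2 kb. The members' mean of rsc2Δ was not below wild type with normexp (difference 0.0083), with bright probes only (0.0045) or without rsc2Δ array 2 (0.00078). The members' mean was 0.334, 0.436 and 0.419 in rsc1Δ, against 0.302, 0.149 and 0.296 in rsc2Δ, with no overlap (difference 0.15, exact permutation test p = 0.1). Within the 3 slides, each of which held both strains, the difference was 0.03, 0.29 and 0.12. At 1 to 2 kb the difference was 0.31, with every rsc1Δ array above every rsc2Δ array. Of the centromere windows 14 of 16 were higher in rsc1Δ, as were 677 of all 1177 windows. Of the 16, 4 were called, at centromeres 4 (0.29, limma adjusted p = 0.0127), 6 (0.25, 0.0433), 12 (0.25, 0.0344) and 13 (0.28, 0.0356), beside 5.27% of all windows.

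Of the 603 probes 5 rose and 0 fell in rsc1Δ relative to rsc2Δ, where 0.494% and 0.448% of nuclear probes did (71 at an unadjusted p under 0.05). Of these, 3 did not overlap between the strains and were well above background on the 6 arrays compared, and these 3 lay left of centromere 13, on the YPT7 arm. At 266564 to 266618 (1.51 kb from the point) the values were 0.80, -0.13 and 0.11 in rsc1Δ, against -1.77, -1.16 and -1.82 in rsc2Δ (difference 1.84, SE 0.29, limma adjusted p = 0.00545), and wild type had -0.42, -0.26 and -0.59, between the mutants. At 264872 to 264931 they were -0.11, 0.17 and 0.06 in rsc1Δ, against -1.37, -1.64 and -1.18 in rsc2Δ (limma adjusted p = 0.0241). At 264539 to 264596 they were 0.16, -0.19 and 0.07 in rsc1Δ, against -1.36, -1.17 and -1.37 in rsc2Δ (limma adjusted p = 0.0153). The probe that rose in rsc1Δ against wild type lies between them. None of the 5 probe calls and none of the 4 window calls passed under the other background corrections, loess, the deposited normalized values or a common spread.

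**Figure D5:**
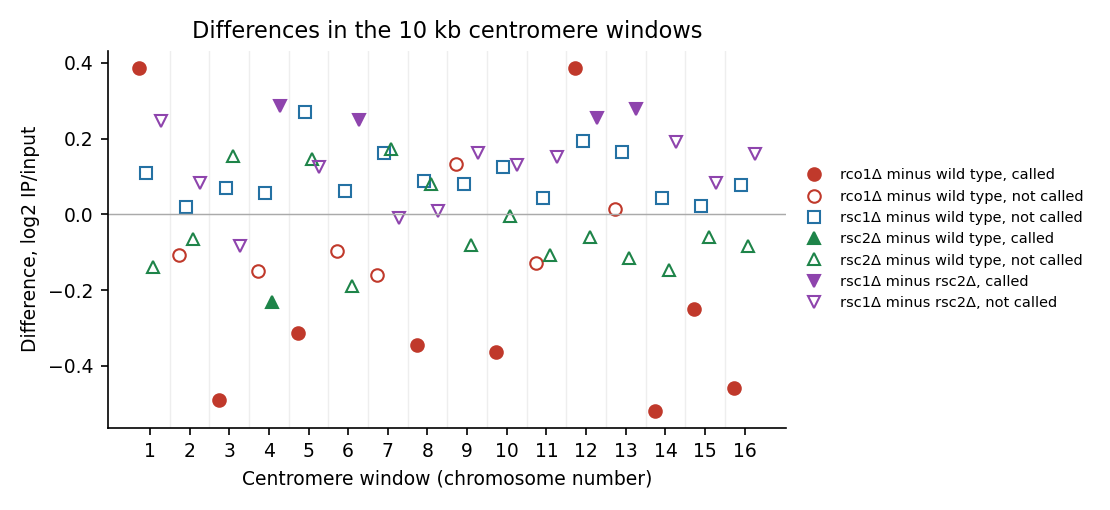
Difference in mean log2 IP/input (vertical axis) of the 10 kb centromere window of each chromosome (horizontal axis) for rco1Δ, rsc1Δ and rsc2Δ minus wild type and for rsc1Δ minus rsc2Δ, from left to right. Filled symbols passed limma's test over 1177 windows at an adjusted p under 0.05 and open symbols did not. All 16 rsc1Δ symbols lie above 0, and the rco1Δ symbols include 2 filled above and 7 filled below 0.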

How the data were processed

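Per the paper's methods and the file headers, the authors amplified the AcH4 IP and input DNA of 12 ChIP samples into RNA, hybridized it (IP in Cy5, input in Cy3) to Agilent arrays of 45219 spots and extracted them with Feature Extraction 10.5.1.1. The deposited processed intensity of each channel is background-subtracted, spatially detrended and dye-normalized, and per the file headers the probes are placed on sacCer1. The authors also deposited a table of normalized log2 ratios (limma, median within arrays and Aquantile between arrays). That table was used only as an alternative: it matched, array by array, a linear function of the log2 ratio of the background-subtracted median spot signals.

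Here 3444 control spots and outlier-flagged spots were left out first. Then log2 of IP over input and log2 of each processed intensity were centred on the array median over the 41775 non-control probes. The 41480 nuclear probes were kept for all comparisons. No spot among the 603 probes was saturated, and 410 of them were clear of background in IP and input alike on all 12 arrays. Probe and window differences were fitted with limma 3.58.1 (R 4.3.3, lmFit and eBayes, all 4 strains in 1 fit), adjusted by Benjamini-Hochberg over all nuclear probes or all 1177 windows of 10 kb with at least 10 probes, and called at an adjusted p under 0.05. Means over probe sets were compared between arrays by exact permutation tests (two-sided, scipy 1.17.1). The number of arrays limits the precision. On simulated data with 100 probes changed by each amount, the probe fit recovered 5% of changes of 1 and 69% of changes of 2 (log2). This was for rco1Δ against wild type over 40322 probes. The window fit recovered 100% of changes of 0.5, made at 59 of 1177 windows. Far larger shares were called in the real rco1Δ comparison. The adjustment depends on the share changed, so these recoveries do not carry over to the rco1Δ calls. The arrays of a strain are biological repeats per the paper's methods, and nothing says whether they were grown side by side.

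Single probes were named by a rule: the 3 largest rises and falls among members called, without overlap between the arrays and well above background on the arrays compared, or the lowest adjusted p in each direction where none was called. The regions, lists and rule were chosen with earlier results of these data known. Alternatives covered background correction (plain subtraction and normexp with an offset of 50, from median spot signals), loess, scaling, bright probes, window width, blocks for slide, scan and replicate number, and leaving out each array. The slide block, the 0.5 kb limit, a common spread of the input and the omission of a centromere 3 probe at background were added after seeing the data.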

Additional observations from a re-analysis of the deposited data

Results flagged for a closer look

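In the test of rsc1Δ against rsc2Δ itself, 5 of the 603 probes and 4 of the 16 centromere windows differed, all with rsc1Δ higher. None of these calls was left under plain subtraction, normexp, loess, the deposited normalized values or a common spread. Without rsc1Δ array 3 the 4 windows were reduced to 0, and 3 of the 5 probes were left without rsc1Δ array 1, rsc1Δ array 3 or rsc2Δ array 3. Their cause was not tested.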

How the results depend on the processing

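Several calls depended on how the signals were processed, and the cause was not tested. The 136 members that rose in rco1Δ were 25 with plain subtraction, 64 with normexp, 57 with loess or the deposited values, 77 among bright probes, 44 within 2 kb and 270 within 10 kb. The 174 that fell were 103 with normexp, 41 with loess, 108 with the deposited values, 97 with a common spread, 104 at an adjusted p under 0.01, 81 within 2 kb and 334 within 10 kb. The 15 nearest probes that fell were 3 with loess, and 25 fell within 0.5 kb. The 48 input rises were 81 among bright probes, 6 with a common spread and 0 with normexp, a slide block, scan as a random block, only the arrays compared or an adjusted p under 0.01. The 2 windows that rose were 0 with plain subtraction, normexp, the deposited values or bright probes. The 7 that fell were 4 with normexp or the deposited values, 2 with loess, 3 with a common spread and 11 among bright probes. The single rsc1Δ probe was 0 with plain subtraction, normexp, loess, the deposited values, a common spread, bright probes, a replicate block, a slide block, only the arrays compared, an adjusted p under 0.01 or 2 kb. The rsc2Δ window was 0 under these settings other than 2 kb, and 1 probe was called in rsc2Δ within 10 kb. For rsc1Δ against rsc2Δ the 5 probes were 0 with plain subtraction, normexp, loess, the deposited values or a common spread, 3 with only the arrays compared or an adjusted p under 0.01 and 2 within 2 kb. The 4 windows were 0 with the same 5 settings, bright probes or an adjusted p under 0.01, 2 with scan as a random block and 1 with a replicate block.

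Reversals were mostly of small differences. The rsc2Δ members' mean was 0.0083 above wild type with normexp and 0.0045 with bright probes. The contrast of the window with its flanks was 0.055 (deposited values) and 0.18 (common spread) in rco1Δ, -0.0085 (loess), -0.0086 (deposited values) and -0.012 (common spread) in rsc1Δ, and 0.0013 (median over probes) in rsc2Δ. Members' input was 0.0047 (normexp), 0.0098 (bright probes), 0.0060 (median over probes) and 0.0060 (slide block) in rsc1Δ, and 0.0054 (plain subtraction), 0.035 (bright probes), 0.0093 (median over probes) and 0.026 (slide block) in rsc2Δ. The chromosome 2 probe at 233621 was -0.032 in the deposited values.

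Leaving out 1 array at a time, the rsc2Δ members' mean difference ranged from -0.076 to 0.00078, the members' input difference from -0.051 to 0.021 in rsc1Δ and from -0.024 to 0.039 in rsc2Δ, and the input rises in rco1Δ from 0 to 117. Calls ranged from 0 to 0 (rsc1Δ probes), 0 to 1 (rsc2Δ probes, the 1 without rsc2Δ array 2), 3 to 4 (probes of rsc1Δ against rsc2Δ), 0 to 0 (rsc2Δ windows) and 0 to 2 (windows of rsc1Δ against rsc2Δ). In rco1Δ the difference of the nearest probes ranged from -1.06 to -0.61 in the ratio and from 0.36 to 0.88 in the input, that of the members from -0.199 to -0.080 in the ratio and from 0.16 to 0.32 in the input, and the contrast with the flanks from -0.11 to -0.039.

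Same-numbered arrays of compared strains did not deviate together (correlations of -0.32 to 0.25), so the numbers do not pair the arrays, and in 2 of 12 cases an array correlated best with its own number. With a replicate block 133 members rose and 157 fell in rco1Δ, 14 nearest probes fell and 43 input rises were called. The input of the nearest probe of centromere 3 was at background. Over all combinations of a main result and another setting, 394 kept direction and call, 99 moved and 21 reversed.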
